A study of Mus musculus with 4 samples.

Results

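The array from stem cells whose transplanted ancestors had received 0.5 Gy of γ-irradiation was compared with the array from the 0.1 Gy group, so 2 of the 4 arrays of the study enter the difference. A gene was kept when its mean log2 intensity over all 4 arrays was at or above 4.06, the median of the gene means, which kept 11593 of 23185 named genes. The value given for each gene is its log2 level at 0.5 Gy minus its log2 level at 0.1 Gy, so that 1 unit is a 2-fold difference and a positive value means a higher level at 0.5 Gy. The 0 Gy and 0.02 Gy arrays are not used in the difference and are given beside it for reference. At the edge of the filter, Gpr101 was the last gene kept, with a mean of 4.06 and a difference of -0.01. Galnt14 and 4833411C07Rik were just outside, both with a difference of 0.00.

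The study asked what low doses of radiation leave behind in blood stem cells after a long interval. Marrow cells that were lineage-negative, c-Kit-positive and Sca-positive, a fraction rich in stem and progenitor cells, received 0, 0.02, 0.1 or 0.5 Gy and were transplanted into lethally irradiated mice. At 6 months, long-term haematopoietic stem cells (HSCs) were sorted from marrow as Lin-, c-Kit+, Sca+, Flk2-, CD48- and CD150+, and each dose gave 1 Affymetrix array of total RNA. Both groups compared here therefore share the transplantation, the conditioning of the host and the 6 months of regeneration, and differ in labelled dose. The labels give no strain, age or genotype. The gate names no donor marker, so cells that survived in the host could be included, and whether several mice were pooled per array is not stated. With 1 array a side there is no replicate error, no gene was tested, and every value below describes these arrays rather than the doses.

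Long-term HSCs renew themselves for life and are mostly quiescent, and they feed granulocyte, erythroid, megakaryocyte and lymphoid progenitors. Ionising radiation breaks DNA and activates p53, which halts the cell cycle through p21. HSCs that have passed through such stress or through transplantation can differ afterwards in cycling, in metabolism and in the lineage genes that they transcribe at low level.

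The 4 arrays had near-equal medians, from 4.01 to 4.07 on the log2 scale, and values from 1.22 to 13.02. Between 0.5 and 0.1 Gy the median difference over the genes kept was 0.00. The level at 0.5 Gy was above that at 0.1 Gy in 4864 genes (42.0%), below it in 5015 (43.3%) and exactly equal in 1714 (14.8%), so a list median of 0.00 can be a tied value. At least 2-fold higher at 0.5 Gy were 183 genes (1.58%), and at least 2-fold lower 224 genes (1.93%). At 1.5-fold the counts were 685 higher (5.91%) and 755 lower (6.51%). Both shares stand as the background for the gene groups below. With the genes kept split into 4 equal groups by mean level, 2-fold differences were found in 4.59%, 5.21%, 2.62% and 1.62% of genes from the lowest group to the highest. The array as a whole cannot tell fewer cells of a type from less RNA per cell.

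**Figure D1:**
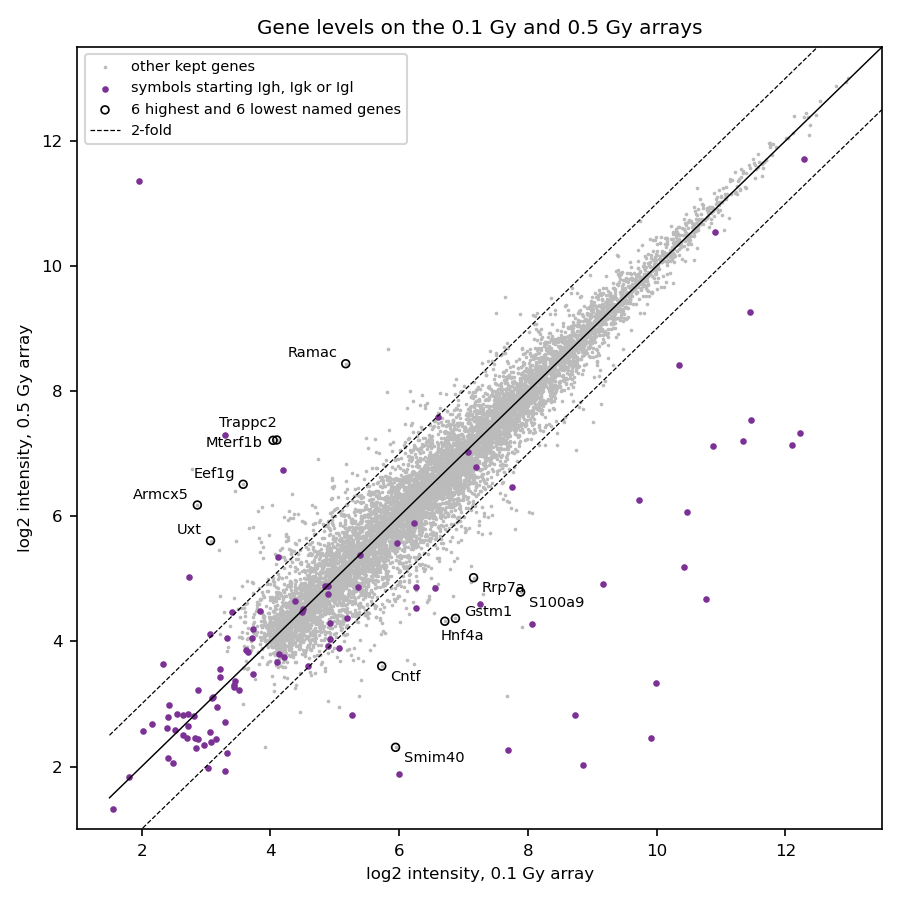
Log2 intensity of each of 11593 kept genes on the 0.1 Gy array (x axis) and the 0.5 Gy array (y axis); the solid line marks equal levels and the dashed lines a 2-fold difference. Immunoglobulin symbols (purple) lie farthest from the line, from -7.46 to 9.40, and the 6 highest and 6 lowest of the other named genes are labelled.

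Of the 6 pairs that 4 arrays can form, 0.5 against 0.1 Gy had the fewest genes at least 2-fold apart, 407 (3.51%). The other 5 pairs had 468 to 564. The pairs share arrays, so these counts are not independent. Without immunoglobulin symbols the counts drew closer, 370 for 0.5 against 0.1 Gy and 389 to 473 for the other pairs. The SD of the difference over genes was 0.47 for 0.5 against 0.1 Gy and 0.54 to 0.71 for the others, but without immunoglobulin symbols it was 0.42, as for 0.02 against 0 Gy. By the median absolute difference the pair was not the closest, at 0.171 against 0.160 for 0.1 against 0 Gy and 0.169 for 0.1 against 0.02 Gy. The difference 0.5 minus 0.1 Gy and the difference 0.02 minus 0 Gy share no array, and across 11593 genes, which are not independent replicates, Pearson's r between them was -0.02 and Spearman's coefficient 0.02.

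Set against the other 2 arrays, some of the 2-fold differences lay on 1 side. Of the 183 higher genes, the 0.5 Gy array stood at least 2-fold above all other 3 arrays in 36 (19.7%), and the 0.1 Gy array at least 2-fold below all others in 45 (24.6%). In 1 gene, Snord33, both held, and in 101 neither did. Of the 224 lower genes, the 0.5 Gy array stood alone in 71 (31.7%) and the 0.1 Gy array in 37 (16.5%), with both apart in 1 and neither in 115. Without immunoglobulin symbols, the 0.5 Gy array stood alone in 49 of 195 lower genes. The 0 Gy level was nearer to 0.1 Gy in 88 of the higher genes and nearer to 0.5 Gy in 95, and among the lower genes nearer to 0.1 Gy in 126 and to 0.5 Gy in 98.

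**Figure D2:**
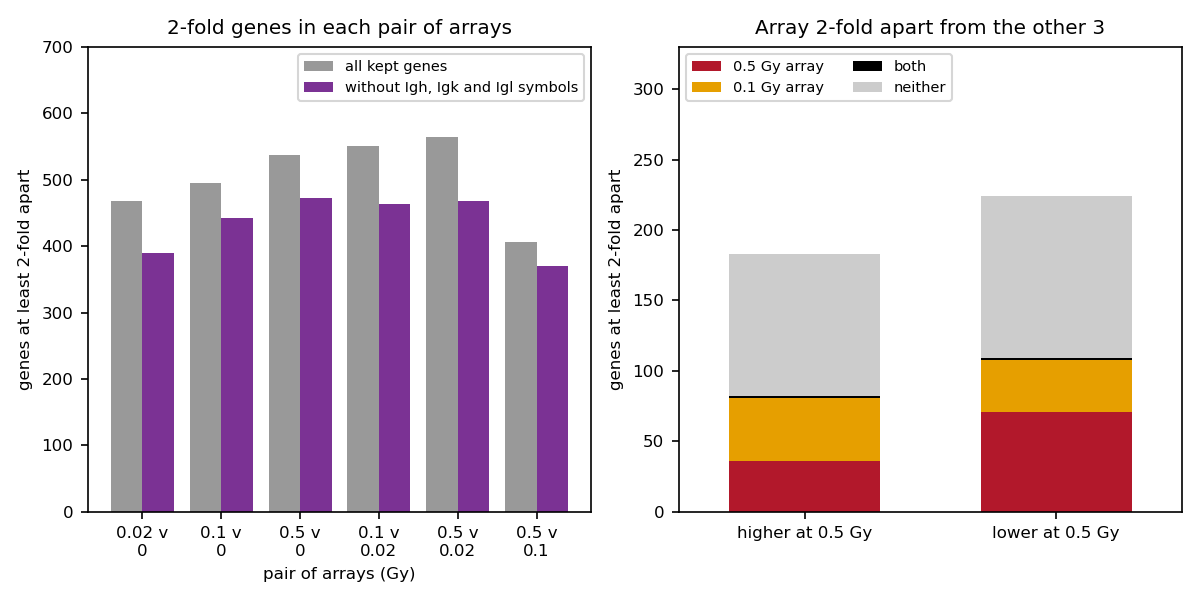
Left, number of genes at least 2-fold apart (y axis) in each pair of arrays (x axis, doses in Gy) with and without immunoglobulin symbols; 0.5 against 0.1 Gy is the lowest of each set at 407 and 370. Right, genes at least 2-fold higher or lower at 0.5 Gy, split by which array stood 2-fold apart from the other 3.

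Immunoglobulin genes, which encode antibodies and are rearranged in B cells, were left out of the rankings. They held the 10 largest differences of all and 18 of the 20 largest. Of 202 measured symbols starting Igh, Igk or Igl, 102 were kept, with 29 at least 2-fold lower at 0.5 Gy, 8 higher and a median of -0.33. These are 28.4% and 7.84%, against 1.93% and 1.58% of all genes kept. The filter keeps a segment that is high on 1 array alone. Igkv8-30, with 2.96, 9.49, 3.29 and 1.93 at 0, 0.02, 0.1 and 0.5 Gy, counts as lower though both compared levels are below the filter level. Some of the counted ratios are therefore of uncertain size. For Igkv1-110, a κ light chain variable segment, the levels in order of dose (0, 0.02, 0.1 and 0.5 Gy) were 2.64, 11.88, 1.96 and 11.36. It was therefore near the bottom of the range on the 0 and 0.1 Gy arrays and near the top on the other pair. Igkv5-43 did the opposite between the compared arrays, with 9.45, 11.48, 9.91 and 2.45. Ighm, the µ heavy chain, had 10.93, 11.20, 11.35 and 7.21, so that the 0.5 Gy array stood alone, and Igkc, the constant part shared by κ chains, had 12.66, 12.83, 12.29 and 11.70. The γ1 heavy chain Ighg1 was low on both compared arrays, with 11.04, 12.55, 3.06 and 4.12. The prefix also takes in Ighmbp2, a helicase and no antibody gene, with a difference of 0.00.

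Genes of antibody-secreting and B cells were looked at beside these. Of 16 plasma cell genes other than immunoglobulins, 13 were kept, with a mean log2 level of 6.26 at 0.1 Gy and 6.14 at 0.5 Gy, a median difference of 0.01, and 2 lower and 0 higher at 1.5-fold. The 2 lower were Mzb1, a chaperone of antibody assembly, with 6.23, 7.60, 5.24 and 3.78 at 0, 0.02, 0.1 and 0.5 Gy, and Jchain, which joins IgM and IgA chains, with 9.75, 10.69, 8.46 and 7.32. Both were highest at 0.02 Gy and lowest at 0.5 Gy. Over the 13 kept, the 0.1 Gy array was the lowest of the 4 in 7 (53.8%) and the 0.5 Gy array in 5 (38.5%). The shares over all genes kept were 21.0% and 23.8%. Sdc1, the syndecan that marks plasma cells, had a difference of -0.07 and the plasma cell regulators Xbp1 and Prdm1 had 0.26 and 0.40. Of 17 B cell genes 6 were kept, with a mean level of 5.85 at 0.1 Gy and 5.41 at 0.5 Gy and a median difference of -0.38. Of these 6, 5 were below 0 and 0 above, and 1 was lower and 0 higher at 1.5-fold. The 0.5 Gy array was the lowest of the 4 in 4 of the 6, against 23.8% of all genes kept. Cd79a, a signalling chain of the B cell receptor, had 3.80, 6.61, 4.40 and 3.30. Pou2af1, a coactivator in B cells, had a difference of -0.53 and Pax5, the B cell identity factor, 0.00. Over all 17 B cell genes the median was -0.12. What part such cells have in the immunoglobulin differences was not tested.

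With immunoglobulin and T cell receptor segments, clone-named and predicted genes, sensory receptors and small RNAs left out of the ranking, the 15 highest genes at 0.5 Gy were 3.45-fold to 9.95-fold above 0.1 Gy, and 8 of the 15 were below the filter level on the 0.1 Gy array, where the size of a ratio is uncertain. In 8 of the 15 the 0.1 Gy array stood 2-fold below all others, and in 5 the 0.5 Gy array stood 2-fold above all others. The latter were Ramac, Trappc2, Eef1g, Il4 and Idi1.

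Ramac (Entrez gene 67148), which activates the enzyme that methylates the cap of messenger RNA, had values of 7.43, 6.01, 5.17 and 8.44 at 0, 0.02, 0.1 and 0.5 Gy, a difference of 3.27. Trappc2 (66226), a subunit of a complex that tethers transport vesicles, had 4.48, 4.95, 4.10 and 7.22, a difference of 3.12. In both the 0.5 Gy array was the highest of the 4, and all values were above the filter level. Eef1g (67160), the γ subunit of translation elongation factor 1, had 4.12, 3.87, 3.58 and 6.51. Another subunit gene, Eef1a1, had 3.78 at 0 Gy, 5.17 at 0.1 Gy and 6.83 at 0.5 Gy, a difference of 1.66. Elongation factor genes have many processed copies in the genome, and which copies the probes detect is not known here. The median over 58 translation factor genes kept was 0.00, and at 1.5-fold 3 were higher and 1 lower.

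Armcx5 (494468), an armadillo repeat gene of the X chromosome, had 5.28, 4.96, 2.87 and 6.18. Mterf1b (208595), of the family that ends mitochondrial transcripts, had 6.39, 6.12, 4.04 and 7.21. Uxt (22294), a prefoldin-like chaperone, had 6.40, 4.09, 3.07 and 5.61. For these 3 genes the 0.1 Gy array was the low one. Pnp2 (667034), a purine nucleoside phosphorylase, had 5.76, 6.33, 3.87 and 6.14, whereas its close relative Pnp had a difference of -0.24. Spaca9, a sperm acrosome gene, had 2.27, and Ms4a6b, a membrane protein of leukocytes, 2.19. Cd59a, an inhibitor of complement, had 1.79, and Sla2, an adaptor that dampens antigen receptor signals, 1.85.

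The 15 lowest genes were 3.44-fold to 12.4-fold below 0.1 Gy, and 4 of them were below the filter level on the 0.5 Gy array. Here the 0.5 Gy array stood 2-fold below all others in 7, namely Gstm1, Rrp7a, Ly6c2, H2-DMb2, Ammecr1, Gpatch8 and Isg15. The 0.1 Gy array stood 2-fold above all others in 6, namely S100a9, Hnf4a, Cby1, Crebl2, Pkn3 and Tnfrsf12a. Gstm1 (14862), a glutathione transferase, had 5.97, 5.50, 6.87 and 4.37. Rrp7a (74778), which acts in ribosomal RNA processing, had 7.16, 6.12, 7.16 and 5.02. Ammecr1 had 6.95, 6.54, 6.54 and 4.46, and Gpatch8 had 7.79, 8.35, 7.81 and 5.80. Each of these genes was higher on all other 3 arrays than at 0.5 Gy.

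Hnf4a (15378), a transcription factor best known from liver, had 4.20, 4.36, 6.71 and 4.32, so the 0.5 Gy value lay with the 0 and 0.02 Gy values and the 0.1 Gy array stood apart. Cby1 (73739), an antagonist of β-catenin, had 6.26, 6.90, 8.06 and 6.06. Crebl2, a bZIP factor, had 6.61, 6.73, 8.02 and 6.07, and Pkn3, a protein kinase, had 5.40, 5.10, 6.43 and 4.63. In all 4 the 0.1 Gy array was the highest of the 4 arrays. Smim40, a small membrane protein gene, had the lowest difference, -3.64, with 2.31 at 0.5 Gy and 2.95 at 0.02 Gy. Cntf, a neurotrophic cytokine of the IL-6 family, had -2.12, with 3.60 at 0.5 Gy. When both compared arrays had to reach the filter level, the 10 highest ended with Serpinb6b at 1.78, Slc35b4, a nucleotide sugar transporter, at 1.77 and the β-globin gene Hbb-b1 at 1.74.

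**Figure D3:**
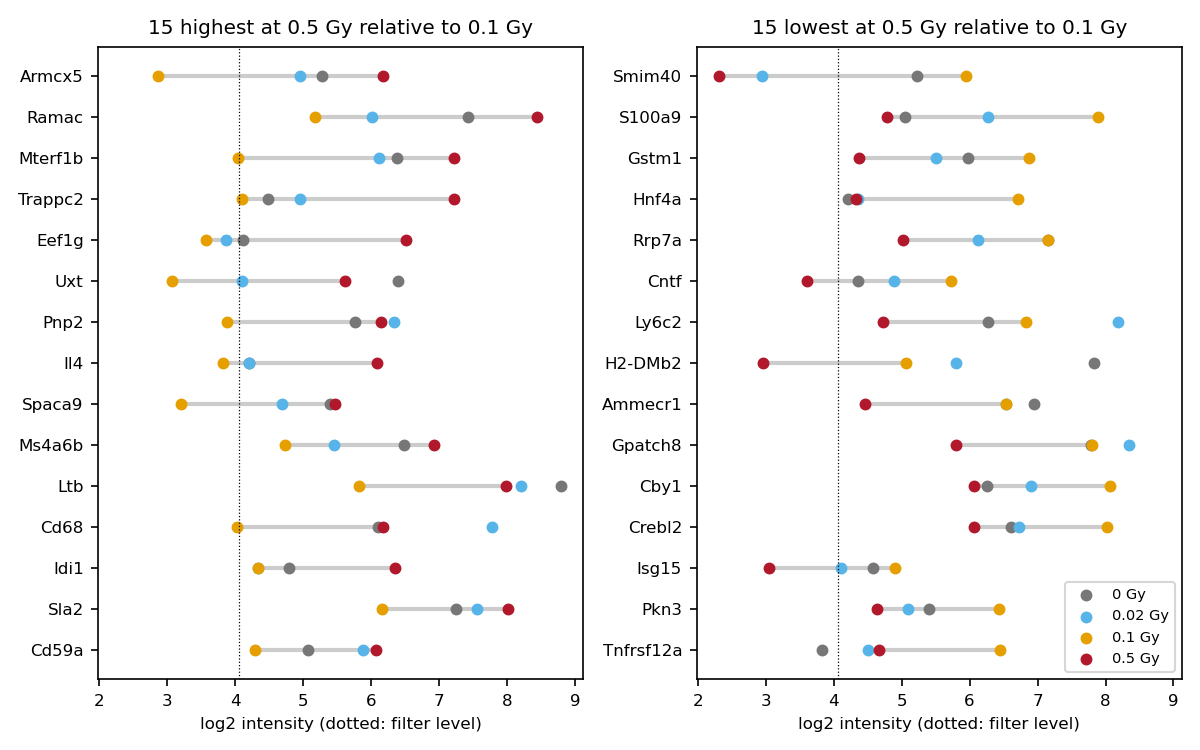
Log2 intensity (x axis) on the 4 arrays (coloured points) of the 15 highest and 15 lowest named genes (y axis); the grey line joins the 0.1 and 0.5 Gy values and the dotted line is the filter level of 4.06. The 0.1 Gy array is the one apart in 8 of the 15 highest and 6 of the 15 lowest genes.

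Genes that define the sorted cells were compared first among the gene groups. Kit, the stem cell factor receptor, had 10.16, 10.57, 10.40 and 10.12 at 0, 0.02, 0.1 and 0.5 Gy, a difference of -0.28. Slamf1, which encodes CD150, was 1.52-fold higher at 0.5 Gy than at 0.1 Gy, with a difference of 0.60. Flt3, which encodes the excluded Flk2, had a difference of -0.68, and Cd34, low in long-term HSCs of adult mice and high in their progeny, had -0.07, with 9.77 at 0.1 Gy and 9.70 at 0.5 Gy. Cd48, also excluded by the gate, was below the filter, with 4.11 at 0.1 Gy and 4.13 at 0.5 Gy. Ly6a, the gene of Sca-1, was not analysed here. Transcripts of the markers selected for, Kit and Slamf1, were above the filter level on both arrays, and those of the excluded Flt3 were too. Cd34 was higher on both than on the 0 and 0.02 Gy arrays, with 8.68 and 7.79.

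Of 36 long-term HSC signature genes 35 were kept. Their median was 0.09, with 25 above 0, 4 at least 1.5-fold higher and 1 lower. The 0.1 Gy array was the lowest of the 4 in 23 of the 35 (65.7%), against 21.0% of all genes kept. The 0.5 Gy array was the lowest in 7 of the 35, against 23.8% of all genes kept. The mean levels of the list were 8.11, 8.29, 7.50 and 7.69 at 0, 0.02, 0.1 and 0.5 Gy. Both compared arrays were thus lower than the 0 and 0.02 Gy arrays. Sult1a1, a sulfotransferase, had 8.77, 9.33, 6.36 and 7.93 at 0, 0.02, 0.1 and 0.5 Gy, and Prdm16, a zinc finger factor that HSCs need, had 6.28, 6.47, 4.94 and 6.28. Gda, guanine deaminase, had 8.13, 8.90, 6.37 and 7.02. Thus 0.5 Gy was above 0.1 Gy in these 3 genes. For Prdm16 it was close to the 0 Gy level, and for Sult1a1 and Gda it was below that level. Procr, the protein C receptor, had 0.55. Tcf15, a bHLH factor of quiescent HSCs, was the 1 lower gene, with 6.56 at 0.1 Gy and 5.64 at 0.5 Gy. Neo1 and Rarb, low on both arrays, had -0.26 and -0.15, and Hlf, a bZIP factor of HSCs, 0.00.

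Genes that mark HSCs of old animals numbered 32 after the filter, 4 higher and 2 lower at 1.5-fold, and their median was 0.10. They overlap the HSC signature, and Sult1a1 and Slamf1 count in both. The mean levels of the list were 7.55, 7.78, 6.93 and 7.06 at 0, 0.02, 0.1 and 0.5 Gy, again lower on both compared arrays. Clu, clusterin, had 8.54, 8.90, 6.50 and 7.09 in order of dose, and Ghr, the growth hormone receptor, had 0.66. Ampd3, an AMP deaminase, had 6.51, 6.60, 5.79 and 4.83, and Ehd3, an endosomal ATPase, had 6.88, 7.43, 6.50 and 5.64, both lowest at 0.5 Gy. Vwf and Selp, which platelets also use, differed by 0.14 and 0.02.

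Over the members kept, granulocyte genes formed the list with the lowest median. Of 22 neutrophil and granulocyte progenitor genes 9 were kept, and their median was -0.48. At 1.5-fold 4 were lower and 0 higher, and the mean level was 6.67 at 0.1 Gy and 5.74 at 0.5 Gy. S100a9, a calcium-binding protein of neutrophils, had 5.05, 6.26, 7.89 and 4.79, an 8.57-fold difference. Its partner S100a8 had 3.89, 2.81, 6.54 and 4.88. Mpo, myeloperoxidase, had 4.78, 6.44, 8.75 and 7.07, and Ctsg, cathepsin G, had 3.48, 3.82, 5.71 and 4.12. All 4 were highest at 0.1 Gy. The primary granule genes Elane and Prtn3 did not share this, with 6.09 and 6.28 for Elane and 8.04 and 8.21 for Prtn3 at 0.1 and 0.5 Gy. The filter keeps a gene that is high on 1 array, so the 9 are not all members. Over all 22 the median was -0.12, no longer the lowest, since mitosis and spindle genes had -0.18 over all measured, and 5 were lower and 2 higher. The fifth lower gene was Camp, a cathelicidin, at -1.98, and the higher ones were Ly6g at 1.77 and Cebpe at 0.63, none of them kept.

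Among 15 multipotent progenitor genes kept, 4 were lower at 1.5-fold and 0 higher. They were Mpo, Ctsg, Flt3 and the antibody gene Ighm, the last with the largest difference, -4.14. Their median was -0.06. Cd52 had a difference of -0.55, Cdk6, a kinase of cell cycle entry, -0.45, and Cd27 0.47. Of 11 lymphoid progenitor genes 4 were kept, with Lax1 at -0.40 and Ikzf1 at 0.13. Of 20 eosinophil, basophil and mast cell genes 3 were kept. Il4, a cytokine of basophils and T helper cells, had 4.20, 4.20, 3.81 and 6.08, and Prg2, the eosinophil major basic protein, had 6.83, 8.58, 5.36 and 3.73. Their differences were opposite in sign, and Il13, the neighbouring cytokine gene of Il4, had 3.13 on all 4 arrays.

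Among 27 monocyte, macrophage and dendritic genes 7 were kept, 2 higher and 2 lower with a median of 0.00. Cd68, a lysosomal protein of macrophages, had 6.10, 7.78, 4.02 and 6.18, while Ly6c2, a surface protein of monocytes, had 6.28, 8.18, 6.83 and 4.72. The class II genes, which present peptides to CD4 T cells, had 8 of 11 kept members above 0 and a median of 0.17, with 2 higher and 1 lower at 1.5-fold. Cd74, the invariant chain, had 9.94, 9.68, 7.87 and 9.23, and H2-Aa, an α chain, had 9.35, 8.93, 8.14 and 9.25. The β chains H2-Ab1 and H2-Eb1 had differences of 0.48 and 0.50. In these 4 genes the 0.1 Gy array was the lowest of the 4. H2-DMb2, which helps load peptides, ran the other way, with 7.83, 5.80, 5.06 and 2.95, and its sister H2-DMb1 had 0.24.

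Of 23 erythroid genes 20 were kept, 3 of them higher and 0 lower at 1.5-fold, and the median was 0.13. The 0.5 Gy array was the highest of the 4 in 10 of the 20, against 20.8% of all genes kept. Hbb-b1, an adult β-globin gene, had 8.59, 8.22, 7.51 and 9.25. Hbb-bs, a near-identical β-globin gene that was not kept, had 2.76 at 0.1 Gy and 4.19 at 0.5 Gy, and such copies cannot be told apart with certainty on an array. Gata1, the erythroid and megakaryocyte factor, had 7.72, 7.33, 8.10 and 8.84, and Rhd, a red cell membrane protein, 4.54, 4.71, 5.57 and 6.19. Car1, carbonic anhydrase 1, had 0.57, short of the 1.5-fold level. The 20 megakaryocyte and platelet genes kept had a median of 0.13, with 16 above 0. Gata1 and Ppbp, a platelet chemokine with a difference of 0.72, passed 1.5-fold, and Pf4, platelet factor 4, had 0.35.

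Of 24 T and NK cell genes 9 were kept, with a mean level of 5.52 at 0.1 Gy and 5.69 at 0.5 Gy and a median of 0.09. Thy1 had 5.05, 5.30, 4.97 and 6.45, and Gata3, a factor of T cells also found in HSCs, had 6.46, 6.90, 6.16 and 6.97. Cd28, a costimulatory receptor, had 4.42, 5.94, 5.70 and 4.35. Of 28 endothelial and stromal genes 12 were kept with a median of 0.02. Bgn, a matrix proteoglycan, had 0.87, and Timp3, a metalloproteinase inhibitor, -1.06.

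Genes of sterol synthesis had the highest median of the 48 lists, 0.32. At 1.5-fold 6 of the 20 were higher and 1 was lower. In 11 of the 20 (55.0%) the 0.5 Gy array was the highest of the 4, and in 0 it was the lowest, against 20.8% and 23.8% of all genes kept. The list was not uniform, for 8 of the 20 were below 0 and in 8 the 0.1 Gy array was the highest of the 4, against 19.8% of all genes kept. Idi1 (319554), which isomerises the 5-carbon building block of sterols, had 4.79, 4.34, 4.34 and 6.35 at 0, 0.02, 0.1 and 0.5 Gy. Mvd, the decarboxylase just before it, had 4.38, 4.45, 4.07 and 5.40, and Hmgcs1, the synthase at the start of the pathway, had 6.60, 6.60, 6.60 and 7.32. Msmo1 and Cyp51, which remove methyl groups from sterol precursors, had 7.25 and 6.91 at 0.5 Gy, with differences of 0.77 and 0.71. Insig1, the sterol sensor that holds back the SREBP factors, had 7.69, 7.81, 7.90 and 8.69. In each of these 6 genes the 0.5 Gy array was the highest of the 4.

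Not all steps of the pathway followed. Lss, lanosterol synthase, was the 1 gene lower at 1.5-fold, with 5.44 at 0.1 Gy and 4.81 at 0.5 Gy, beside 4.81 at 0 Gy. Sqle, squalene epoxidase, had -0.33, Fdps, farnesyl diphosphate synthase, -0.36, and Srebf2, the gene of SREBP-2, -0.10. Fatty acid synthesis genes, the related branch, had a median of 0.00 over 15 genes, with 0 higher and 2 lower at 1.5-fold. Gpam, which starts glycerolipid synthesis, had 5.49, 5.56, 6.16 and 4.95, and Acaca, acetyl-CoA carboxylase, 5.97, 5.97, 6.23 and 5.35.

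SREBP-2 activates sterol genes through sterol response elements near their start sites, with NF-Y bound to CCAAT boxes close by. Promoter windows from 250 bases before to 50 after the start, taken from RefSeq on GRCm38.p6, were searched on both strands for TCACNCCAC, a common form of the element, and for CCAAT. Both searches were chosen after the values of the list were seen. TCACNCCAC was in 1.24% of all 32851 windows and in 1 of 19 windows of 16 sterol genes, that of Hmgcs1. CCAAT was in 37.4% of all windows, which include genes not kept, and in 16 of the 19. The 6 windows of the higher genes, a set picked by the difference itself, each held it. Whether CCAAT goes with the difference was not tested. The windows of Hmgcs1 (chr13:119690101-119690400, plus strand) and Idi1 (chr13:8885356-8885655, plus strand) are shown because these genes lie at the start and in the middle of the pathway and were highest at 0.5 Gy. Capitals mark TCACNCCAC matches and CCAAT boxes, which read ATTGG here because they lie on the other strand.
Hmgcs1: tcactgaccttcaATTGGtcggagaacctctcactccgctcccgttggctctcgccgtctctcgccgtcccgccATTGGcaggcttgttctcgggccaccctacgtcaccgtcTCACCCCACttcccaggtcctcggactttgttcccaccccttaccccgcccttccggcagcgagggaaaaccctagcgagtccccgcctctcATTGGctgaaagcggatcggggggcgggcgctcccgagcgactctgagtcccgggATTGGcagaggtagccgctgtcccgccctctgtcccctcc
Idi1: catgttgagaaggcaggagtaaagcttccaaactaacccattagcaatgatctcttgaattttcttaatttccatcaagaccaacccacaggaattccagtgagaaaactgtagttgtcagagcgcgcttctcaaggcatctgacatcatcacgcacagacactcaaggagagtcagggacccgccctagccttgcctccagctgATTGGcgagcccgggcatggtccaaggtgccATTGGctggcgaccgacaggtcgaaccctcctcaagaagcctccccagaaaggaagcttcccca
Counting the start base as 0, Hmgcs1 had 1 such element, beginning at -137, and 4 CCAAT boxes, none of which overlapped it. Idi1 had 2 CCAAT boxes, at -45 and -14. These matches are a description of the letters and not of bound factors.

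**Figure D4:**
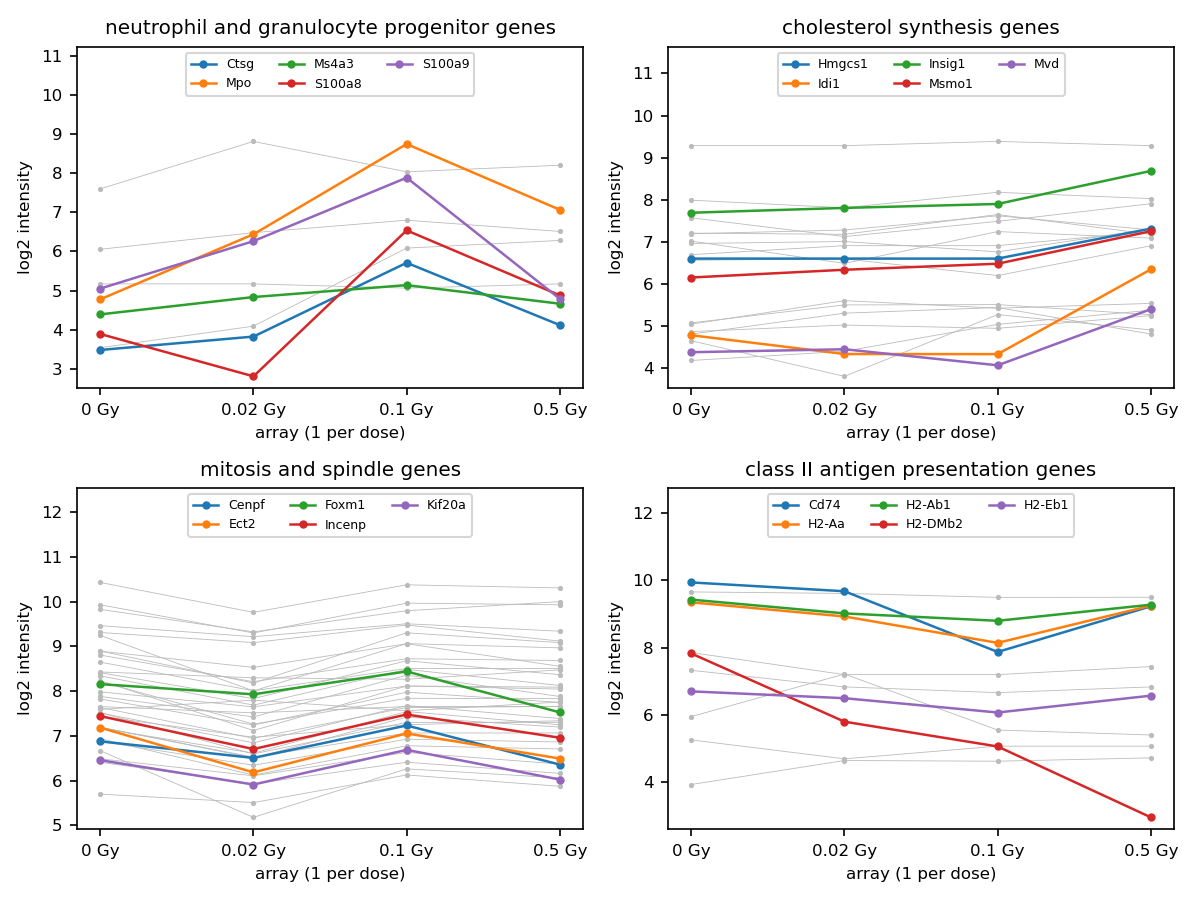
Log2 intensity (y axis) of the kept members of 4 gene lists on each array (x axis, 1 array per dose); the 5 members with the largest absolute difference between 0.5 and 0.1 Gy are coloured and the rest are grey. S100a9, S100a8, Mpo and Ctsg peak on the 0.1 Gy array, and the coloured sterol genes are highest at 0.5 Gy.

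Energy metabolism genes differed by small amounts. Nuclear genes of oxidative phosphorylation, which build the respiratory chain, were above 0 in 48 of 71 kept members (67.6%) against 42.0% of all genes kept, with a median of 0.08 and 2 at least 1.5-fold higher. Ndufb11, of complex I, had 7.03, 7.09, 6.28 and 7.07, and Ndufa11 had 5.78, 5.78, 5.75 and 6.54. The 0.5 Gy array was the highest of the 4 in 32 of the 71 (45.1%). Glycolysis and citric acid cycle genes were below 0 in 21 of 34 (61.8%), with a median of -0.06. Pfkp, a phosphofructokinase, was the 1 gene past 1.5-fold, at 7.37 and 6.60 on the 0.1 and 0.5 Gy arrays, and Aldoc, an aldolase, had -0.58.

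Mitosis and spindle genes were below 0 in 29 of 38 (76.3%), against 43.3% of all genes kept, and their median was -0.18. At 1.5-fold 3 were lower and 0 higher. In 20 of the 38 (52.6%) the 0.1 Gy array was the highest of the 4, against 19.8% of all genes kept. Foxm1, the factor that drives mitotic genes, had 8.16, 7.93, 8.44 and 7.53 at 0, 0.02, 0.1 and 0.5 Gy. Cenpf, a kinetochore protein, had 6.88, 6.51, 7.23 and 6.36, and Kif20a, a kinesin of cytokinesis, had 6.46, 5.91, 6.69 and 6.02. Among core members, Mki67 was near the list median at -0.17, and Top2a at -0.04, Plk1 at -0.03 and Cdc20 at -0.01 differed little. The list's mean level was 7.97 at 0.1 Gy and 7.77 at 0.5 Gy, beside 7.92 on the 0 Gy array and 7.34 on the 0.02 Gy array.

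DNA replication genes, by contrast, had a median of 0.00 over 47 genes, of which 2 were higher and 3 lower at 1.5-fold. Cdc7, the kinase that fires origins, had 5.78 at 0.1 Gy and 6.64 at 0.5 Gy, and Gins1, of the replicative helicase, 6.36 and 7.13. Another helicase subunit gene, Gins3, had 6.78 and 5.82, and Pola2, of DNA polymerase α, 8.19 and 7.37. Histone genes had a median of 0.01, with H3c10 at 1.15 and H3c15 at -1.08. CDK inhibitors, D cyclins and RB family genes had 3 higher and 0 lower of 22 and a median of 0.04. Ccnd1, cyclin D1, had 8.45, 7.76, 7.16 and 8.14, and Cdkn2d, the inhibitor p19, had 7.01, 7.28, 6.81 and 7.64. Cdkn1a, the p53 target p21, had 7.87, 9.68, 8.82 and 9.52, so both compared arrays lay between the 0 and 0.02 Gy values.

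**Figure D5:**
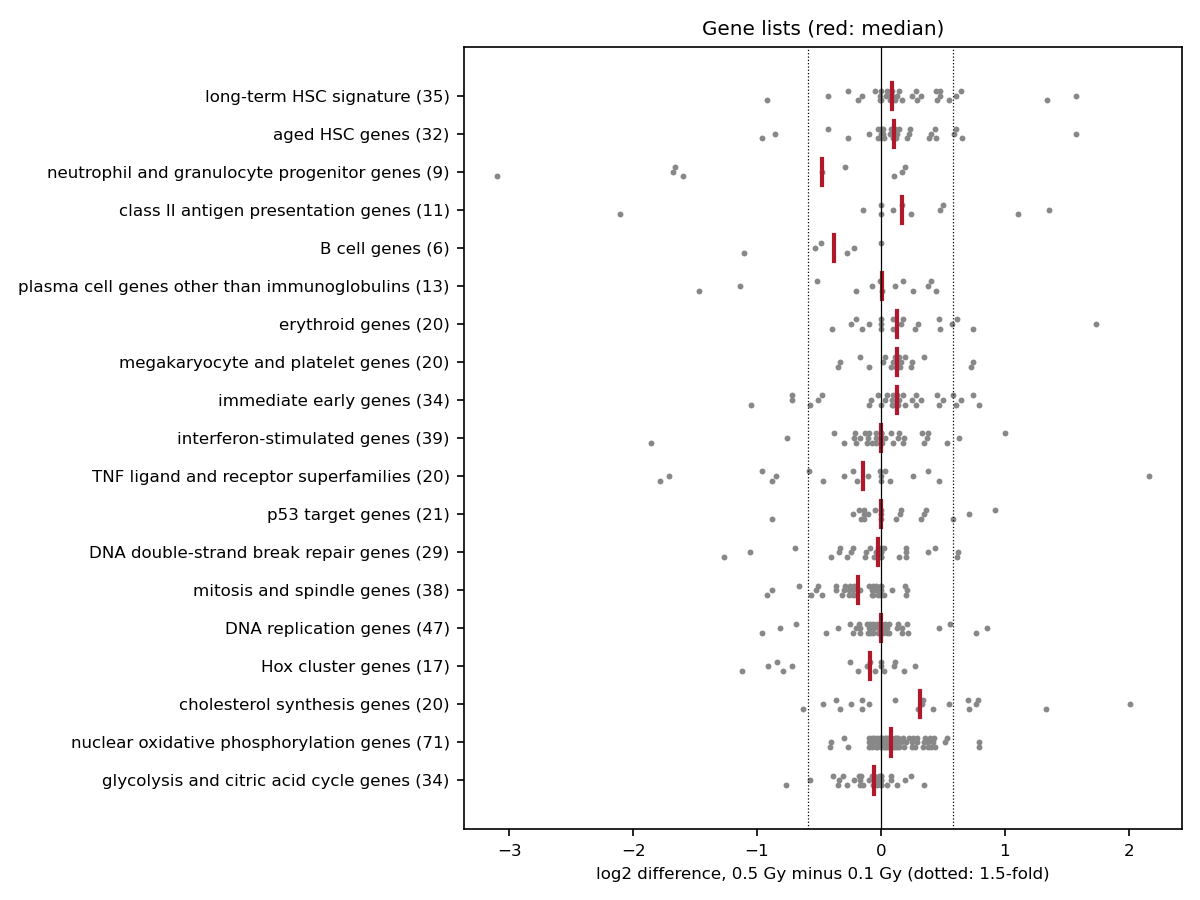
Log2 difference 0.5 minus 0.1 Gy (x axis) of each kept member (grey points) of 19 gene lists (y axis, number of kept members in brackets); red bars are list medians and dotted lines mark 1.5-fold. Medians of the kept members run from -0.48 for neutrophil genes to 0.32 for sterol genes. Over all 22 neutrophil genes measured the median was -0.12.

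The radiation response lists had medians near 0. Of 21 p53 target genes 2 were higher, Cdkn1a at 0.71 and the repair gene Ddb2 at 0.92, and 1 was lower, Tnfrsf10b, a death receptor, at -0.88, with a median of 0.00. Of 29 double-strand break repair genes 2 were higher and 3 lower. Their median was -0.03. Brca1, which acts in homologous recombination, had 6.01, 5.90, 7.32 and 6.05, so the 0.1 Gy array stood apart. Nhej1, a factor of end joining, had 4.68, 4.41, 5.16 and 4.10, and Xrcc3 had -0.70. Nbn, of the break sensor complex, and the helicase Wrn both had 0.62. BCL2 family genes had 0 of 15 past 1.5-fold in either direction, with Bcl2 at -0.56. Of 31 NRF2 targets and antioxidant genes 3 were higher and 2 lower. Their median was 0.10. Gstm2 had 0.80 while its near relative Gstm1 had -2.51. Gclm, of glutathione synthesis, had -0.86, and Pgd and Gsta4 had 0.73 and 0.70.

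Stress and cytokine lists were mixed. The 34 immediate early genes, rapid targets of growth factor and stress signals, had a median of 0.13, and 4 were higher and 3 lower. Klf4 had 6.28, 7.29, 6.36 and 7.15, and Dusp5, a phosphatase of ERK, had 5.41, 6.98, 5.86 and 6.61. Fosl1 and Egr3 had -1.05 and -0.72. In the p38 MAP kinase list, a stress pathway in HSCs, 4 of 26 were lower and 0 higher, though the median was 0.00. These were the p38 and JNK phosphatases Dusp10 at -0.91 and Dusp16 at -0.68, the activator Gadd45g at -0.72 and the kinase Mknk1 at -0.63. In the NF-kB list 4 of 21 were lower and 1 higher, with Tnf at 6.26 and 5.30, Bcl3 at 6.92 and 6.13 and Tnfaip3, which ends the response, at 7.57 and 6.96 on the 0.1 and 0.5 Gy arrays.

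Of 26 SOCS proteins and STAT targets 3 were higher and 2 lower. Socs3, an inhibitor of IL-6 type signals, had 4.50, 7.53, 5.49 and 6.72, and Il6st, the receptor chain gp130, had 7.80, 7.66, 6.43 and 7.20. Socs1 had -0.71. In the TGF-beta list Id1, an inhibitor of differentiation, had 0.81 and the receptor Tgfbr1 0.61, with 2 of 21 higher and 0 lower. Interferon-stimulated genes, 39 in all, had 2 higher and 2 lower members, their median being 0.00. Isg15, a ubiquitin-like protein, had 4.57, 4.10, 4.90 and 3.05, below the filter level at 0.5 Gy, while Igtp, a GTPase, had 9.02, 8.46, 7.61 and 8.61. Of 20 TNF superfamily genes 5 were lower and 1 higher. Their median was -0.15, and it was 0.00 over all 45 measured. Ltb, lymphotoxin β, had 8.80, 8.21, 5.82 and 7.98. The TWEAK receptor Tnfrsf12a had 3.82, 4.50, 6.45 and 4.67, and the decoy receptor Tnfrsf22 had 7.50, 6.67, 7.81 and 6.10. Chemokine genes had 1 of 16 past 1.5-fold, Cxcr1 at 1.38.

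Among transcriptional regulators, Hox genes had 5 of 17 at least 1.5-fold lower and 0 higher, and the median was -0.09. In 9 of the 17 (52.9%) the 0.5 Gy array was the lowest of the 4, against 23.8% of all genes kept. This was not particular to Hox genes, with 13 of 27 Notch and Wnt genes (48.1%) and 14 of 34 glycolysis and citric acid cycle genes (41.2%). Hoxb3 had 4.96, 5.82, 4.38 and 3.26, Hoxa3 had 5.20, 6.06, 6.08 and 5.17, and Hoxa5 had 6.29, 6.72, 6.26 and 5.54. Hoxa4 and Hoxb6 had -0.84 and -0.79. Hoxa9, the Hox gene best known in HSC self-renewal, and Hoxb4 both had 0.00, and 20 of the 38 Hox genes measured were below the filter level on all 4 arrays. Of 48 DNA and histone modifying enzymes 0 were higher, against 5.91% of all genes kept, and 3 were lower. The 3 lower genes were 6.25% of the list, near the 6.51% of all genes kept. These were the polycomb gene Bmi1 at 6.32 and 5.59, the deacetylase Sirt1 at 8.02 and 7.34 and the demethylase Kdm6b at 7.06 and 6.43 on the 0.1 and 0.5 Gy arrays. Mxd1, an antagonist of MYC, had 6.57, 6.88, 6.32 and 7.78, and Myc itself had 0.36. Blood transcription factors had a median of 0.04 over 28 genes, with Gata1 alone past 1.5-fold.

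The remaining lists had medians within 0.1 of 0, as did 34 of the 48. FOXO and quiescence genes had 2 of 23 lower, Bmi1 and Stk11, and Notch and Wnt genes 0 of 27 in either direction. Of 52 ribosomal protein genes 6 were higher, led by Rps15 at 1.05, and 7 lower, led by Rps25 at -1.33. Proteasome genes had 3 of 44 higher, among them Psma8 with 5.78, 3.02, 6.95 and 7.99, and 1 lower, Psmf1 at -0.69. Autophagy and lysosome genes had 2 of 37 higher and 1 lower, with Atg12 at 0.83 and the protease gene Atg4a at -1.40. Heat shock and unfolded protein response genes had 1 of 33 lower, Hsf2 at -0.75. The GTPase genes Gimap4 and Gimap8 had 0.64 and 0.62, 2 of 7 GIMAP genes kept. In the γ protocadherin cluster 1 of 7 was lower, Pcdhga9 at -0.73.

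Small RNA genes, left out of the ranking, are described here as a class chosen after its values were seen. Of 529 microRNA genes, host genes aside, 99 were kept, with 4 at least 2-fold higher, 8 lower and a median of -0.02. The shares over all genes kept were 1.58% higher and 1.93% lower. A microRNA pairs with messenger RNAs through its seed, bases 2 to 8, and represses them. The array detects RNA that contains the gene's sequence, so precursor and mature forms cannot be told apart. For 11 of the 12 genes past 2-fold RefSeq (GRCm38.p6) gave mature sequences, 17 in all with 17 different seeds, so no pair of them shared a seed. Those known from blood cells are shown with the seed in capitals, namely miR-26a-5p (chr10:126995543-126995564, plus strand), miR-23a-3p (chr8:84208563-84208583, plus strand), miR-17-5p (chr14:115043684-115043706, plus strand) and both arms of miR-142a (chr11:87756867-87756887 and chr11:87756903-87756925, plus strand).
mmu-miR-26a-5p: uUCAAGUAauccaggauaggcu
mmu-miR-23a-3p: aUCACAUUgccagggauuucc
mmu-miR-17-5p: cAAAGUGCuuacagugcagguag
mmu-miR-142a-5p: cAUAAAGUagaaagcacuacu
mmu-miR-142a-3p: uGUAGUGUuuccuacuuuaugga
Mir26a-2 had 2.88, 3.12, 7.67 and 3.12 at 0, 0.02, 0.1 and 0.5 Gy, the lowest difference of the class at -4.55, with the 0.1 Gy array apart. Its host gene Ctdsp2 had 7.71, 8.14, 7.79 and 7.64 and did not share that pattern. Mir23a had 4.04, 4.97, 6.46 and 4.72, while its cluster neighbour Mir27a had 6.44 at 0.1 Gy and 6.11 at 0.5 Gy. Mir17 had 6.60, 5.68, 4.46 and 2.86, and Mir18 of the same cluster had 6.66, 6.18, 4.21 and 3.44, both below the filter level at 0.5 Gy. Mir142, a microRNA of blood cells, had 2.57, 5.28, 3.83 and 5.66.

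Of 107 small nucleolar and Cajal body RNA genes, most of which guide the modification of ribosomal RNA, 70 were kept, with 6 at least 2-fold higher and 14 lower. Small and ribosomal RNAs together, grouped by symbol prefix and so with Mir22hg, a long host transcript, among them, had 5.56% higher and 12.2% lower, against 1.58% and 1.93% of all genes kept. These shares were not matched for level. Over all genes kept, 2-fold differences in either direction ranged with mean level from 1.62% in the highest group to 5.21% in the second lowest. Snord33 had 4.18, 4.18, 2.78 and 6.75, a difference of 3.97. Snord34, which lies with it in the Rpl13a gene, was not kept and had 2.17 at 0.1 Gy and 4.29 at 0.5 Gy, while Snord32a and Snord35a of that gene had differences of 0.63 and -0.47. Snord92 had 5.16, 4.44, 6.24 and 3.63, and Snord89 had 6.04, 6.37, 7.30 and 4.76. Neighbours in a host gene thus differed in size and sign.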

How the data were processed

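The deposited values are log2 intensities, 1 for each of 25206 Affymetrix probe sets on 4 arrays, 1 array per dose, grouped by the dose in the labels. The base 2 was inferred from the range, 1.22 to 13.02, and is not stated. Per the submitters' processing notes the authors used Partek. No source used here gives its role, the background correction, the normalization or the build. Per the labels' protocols, total RNA was labelled as biotinylated cDNA by the Affymetrix whole-transcript method.

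Values were used as deposited. Probe sets were named through the platform table, 23185 with a symbol and 2021 without. The difference 0.5 minus 0.1 Gy was taken over the 11593 genes kept by the mean filter, and genes past 2-fold or, in lists, 1.5-fold were counted, with no test. Named genes were the 15 highest and 15 lowest, the 10 in each direction with both arrays at or above the filter level, up to 6 members of each of 48 lists with the largest absolute difference, and the sort markers. Immunoglobulin and T cell receptor segments, clone-named and predicted genes, sensory receptors and small RNAs were left out of these. The text also gives other list members, named after their values were seen. The comparison and the lists were chosen with earlier results of these data known. Alternatives were 3 renormalizations with limma 3.58.1 in R 4.3.3, other filters, other folds and the omission of immunoglobulin symbols. Counting and medians used pandas 2.3.3 in Python 3.11.15 and were tested on simulated data. The number of arrays limits the precision.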

Additional observations from a re-analysis of the deposited data

Results flagged for a closer look

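Probe sets with no gene symbol were outside the comparison. Of 2021 such probe sets 935 passed the same filter, and 36 of them (3.85%) were at least 2-fold apart between 0.5 and 0.1 Gy, 17 higher and 19 lower, with differences from -2.82 to 2.48. The share among named genes was 3.51%. What these probe sets detect is not known here.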

How the results depend on the processing

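With 1 array a side, no value has an error, no array can be left out without ending the comparison, and differences that involve a level below the filter have an uncertain size. No paired analysis was possible because each dose has a single array and no result comes from a test. The counts of genes at least 2-fold higher and lower, 183 and 224 as reported, were 102 and 118 under a stricter filter on gene means, 685 and 755 at 1.5-fold, and 45 and 67 at 3-fold. Under the other settings they ran from 147 to 255 higher and from 177 to 295 lower, within 1.5 times the reported counts. Of the higher genes with the 0.5 Gy array apart there were 36, against 77 with no filter and 14 under the stricter filter. With the 0.1 Gy array apart there were 45, against 28 under the stricter filter. Of the lower genes with the 0.5 Gy array apart there were 71, against 45 under the stricter filter, and with the 0.1 Gy array apart 37, against 62 with no filter and 15 under the stricter filter. Quantile normalization, median centring and cyclic loess moved the median difference by 0.01 and raised the higher share of 2-fold genes from 45.0% to between 47.2% and 47.8%, and 397 to 400 of the 407 genes were shared. Under these 3 settings 0 of 278 named gene differences and 0 of 48 list medians moved by 0.1 or more. With no filter 7 list medians moved. The sort markers went to -0.07, lymphoid progenitor genes to -0.12, neutrophil and B cell genes each to -0.12, TGF-beta genes to 0.01, and both the eosinophil, basophil and mast cell genes and the TNF superfamily to 0.00. With both arrays at or above the filter level 2 moved, the B cell median to -0.24 and the plasma cell median to 0.12. No result past its threshold changed direction under these settings.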
